A study of Mus musculus with 2 samples.

Results

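Natural killer cells and T cells kill target cells with the contents of their granules and find those targets through activating receptors or the T cell receptor. Here 10 genes of this machinery were read in uterine stromal cell isolates of mice on day 4 of pregnancy. They are Gzma, Gzmb, Prf1 and Nkg7 of the cytotoxic granule, Klra8, Klrb1c, Klrk1 and Ncr1 among the receptors, and Cd3g and Cd3e of the T cell receptor complex. Every probe set whose platform annotation gives exactly 1 gene symbol, and that symbol is one of these, was used. That gave 10 probe sets for 9 of the 10 genes, out of 18193 genes and 45101 probe sets on the array. Klrb1c had no such probe set, since its symbol occurs only on a probe set annotated to 2 genes, and it is not given a value.

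RNA of Hand2 floxed mice served as the control. Hand2 encodes a basic helix-loop-helix factor made in the uterine stroma. The other array received RNA of Hand2-null mice, made by crossing floxed mice with PRcre mice, in which Cre recombinase is made where the progesterone receptor gene is active. The labels give both groups the same mixed C57BL/6 and SV129 background and list Prcre for both. RNA was pooled over mice within each genotype, from 5 mice per genotype by the treatment protocol and 4 by the extraction protocol, and hybridized to 1 array per genotype. Digested cells were left to attach to culture plates for 1 h and unattached cells were removed, so lymphocytes could be read only as far as they stayed with the attached cells. Without replicates there is neither a test nor an error for any difference, and each value compares these 2 pools.

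As background, uterine natural killer cells gather in the mouse uterus around implantation and become abundant in the decidua, where they are known for their part in remodelling the spiral arteries. Perforin opens the membrane of the target cell, granzymes enter and cleave proteins there, and NKG7 is a membrane protein of the granules. Activating receptors pass their signal through small adaptor proteins, while the CD3 chains carry the signal of the T cell receptor. RUNX and T-box transcription factors are known regulators of cytotoxic genes in lymphocytes.

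The promoters of the 6 members with a measured signal are shown, whichever way they differed, as the sequences next to the genes described below. Gzma, Gzmb, Nkg7 and Klra8 were lower in the Hand2-null array, and Klrk1 and Cd3g were higher. Each line gives the 250 bases before the annotated start, from RefSeq on GRCm38.p6, 5′ to 3′ on the gene's strand, with the RUNX core TGTGGT or its reverse complement ACCACA in capitals.
Gzma, chr13:113100982-113101231, strand minus: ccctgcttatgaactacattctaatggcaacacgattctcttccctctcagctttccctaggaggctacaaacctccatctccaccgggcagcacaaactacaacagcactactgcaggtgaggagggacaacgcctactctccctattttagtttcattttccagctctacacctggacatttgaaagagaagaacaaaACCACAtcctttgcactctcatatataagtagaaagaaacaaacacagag
Gzmb, chr14:56262335-56262584, strand minus: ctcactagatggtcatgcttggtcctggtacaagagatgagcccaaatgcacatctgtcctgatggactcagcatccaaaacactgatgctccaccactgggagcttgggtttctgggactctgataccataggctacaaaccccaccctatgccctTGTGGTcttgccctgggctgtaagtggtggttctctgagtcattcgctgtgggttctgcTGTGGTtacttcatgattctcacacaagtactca
Nkg7, chr7:43436888-43437137, strand plus: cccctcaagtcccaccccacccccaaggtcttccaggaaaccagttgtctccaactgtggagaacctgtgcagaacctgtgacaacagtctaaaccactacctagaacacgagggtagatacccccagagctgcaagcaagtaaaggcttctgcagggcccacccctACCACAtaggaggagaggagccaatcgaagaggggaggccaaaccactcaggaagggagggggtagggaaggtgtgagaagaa
Klra8, chr6:130129899-130130148, strand minus: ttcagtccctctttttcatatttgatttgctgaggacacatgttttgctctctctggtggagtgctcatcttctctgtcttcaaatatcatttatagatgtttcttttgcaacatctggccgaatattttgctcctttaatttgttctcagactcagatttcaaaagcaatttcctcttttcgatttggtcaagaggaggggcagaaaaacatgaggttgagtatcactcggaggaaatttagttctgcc
Klrk1, chr6:129623865-129624114, strand minus: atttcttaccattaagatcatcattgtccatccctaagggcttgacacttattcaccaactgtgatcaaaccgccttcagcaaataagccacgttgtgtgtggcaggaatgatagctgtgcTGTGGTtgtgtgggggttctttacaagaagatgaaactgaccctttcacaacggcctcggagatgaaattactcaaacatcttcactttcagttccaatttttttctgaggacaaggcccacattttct
Cd3g, chr9:44980432-44980681, strand minus: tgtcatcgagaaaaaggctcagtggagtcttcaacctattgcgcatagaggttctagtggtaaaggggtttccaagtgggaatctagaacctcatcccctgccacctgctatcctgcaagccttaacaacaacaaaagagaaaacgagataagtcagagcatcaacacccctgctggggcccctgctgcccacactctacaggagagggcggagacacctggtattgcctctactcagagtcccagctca

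The RUNX core was in the windows of 7 of the 10 genes, against 4614 of 32851 windows in the whole table, or 14.0%. It lay 50 bases before the start of Gzma, 93 and 34 before that of Gzmb, 83 before that of Nkg7 and 129 before that of Klrk1, and was also in the windows of Prf1, Klrb1c and Ncr1. These letters were not in the windows of Klra8, Cd3g or Cd3e. Of the measured members with the core, Gzma, Gzmb and Nkg7 were lower. Klrk1 holds it too, but was measured only through the Hand2-null array, so it could come out only as higher. Without the core, Klra8 was lower and Cd3g higher. Whether the core goes with the direction was not tested. The T-box core GGTGTG, read on both strands, was in the window of Nkg7 alone among the 10, 13 bases before its start, against 16.3% of all windows. The E-box CANNTG, the kind of site that basic helix-loop-helix factors bind, was in the windows of all 10 genes and in 66.2% of all windows. Klra8 and Ncr1 have 2 windows each, of which the first of Klra8 is printed, and a match in either was counted. A match describes letters only, and no binding was measured.

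Across the 9 genes with a probe set, the differences were small and went both ways. A probe set was called measured when its signal reached the array's floor, the 60th percentile of non-control probe sets, in at least 1 array. The floors were 64.2 for the control and 67.5 for the Hand2-null array. Of the 9 genes 6 were measured, 5 of them above the floor in both arrays, and 4 were lower and 2 higher in the Hand2-null array. Among all measured genes 55.3% were lower. The median log2 ratio of the 6 measured genes, Hand2-null over control, was -0.39, beside -0.03 over all 10371 measured genes. With 1 array under its floor the signal was set to the floor and the fold is a lower bound. Such a gene counts as measured only through its brighter array, so its direction is set by the floor. Counts of higher and lower genes and medians include such genes unless they are given for genes above both floors, but their direction carries no weight. Among the 5 members above both floors 4 were lower and 1 higher, with a median log2 ratio of -0.45.

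None of the 6 measured genes was at least 2-fold apart between the arrays. Of all measured genes, 206 or 1.99% passed 2-fold on the higher side of the Hand2-null array and 77 or 0.742% on the lower side. At 1.5-fold, Cd3g was higher and Klra8 lower, where 6.21% and 3.33% of all measured genes passed in those directions. Without replicates, the variation between mice, pools and hybridizations cannot be estimated. Only the spread between probe sets of a gene on these same 2 arrays can be given, and it holds none of that variation. In the members' range of brightness their log2 ratios had an SD of 0.24 (626 genes). The middle 95% of the 3605 measured genes in that range lay between -0.73 and 0.99, and of the 6 members Klra8 lay just outside it.

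Among the granule genes, Gzma, a granzyme with trypsin-like specificity, had signals of 139 in the control and 100.3 in the Hand2-null array. Both lay above the floor, and the Hand2-null value was 1.38-fold lower, a log2 ratio of -0.47. Gzmb, the granzyme that cleaves after aspartate and activates caspases, had signals of 230.1 and 169, 1.36-fold lower or -0.45. Nkg7, whose protein is needed for granule release, had signals of 135 and 107, 1.27-fold lower or -0.34. These 3 genes were thus lower by similar ratios, each within the middle 95% of genes as bright, and each rests on 1 probe set.

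Prf1, the gene of perforin, was under the floor in both arrays on both of its probe sets, so no fold is given. The signals were 25.8 in the control and 27.1 in the Hand2-null array on one probe set, and 37.7 and 26.2 on the other. The probe sets of Prf1 did not go the same way, and neither gives a level here.

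Among the receptors, Klra8 (Ly49H), an activating receptor that binds a protein of mouse cytomegalovirus and signals through the adaptor encoded by Tyrobp, had signals of 154 and 92.4. It was 1.67-fold lower in the Hand2-null array, a log2 ratio of -0.74, the lowest among the members. Of all measured genes 1.77% had a lower ratio. Its probe set carries the suffix that marks probes able to bind related transcripts, and the Klra genes are a cluster of close paralogs whose gene content differs between C57BL/6 and 129 mice. The signal therefore cannot be assigned to Klra8 alone, and a difference in expression cannot be told apart from a difference in the alleles that the pooled mice carried.

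Klrk1 (NKG2D), the activating receptor for stress-induced ligands, signals through the adaptor encoded by Hcst. Its signal was 53.7, under the floor, for the control and 87.3 for the Hand2-null pool. The Hand2-null value was at least 1.36-fold higher, and 1.63-fold higher if the control signal is taken as it stands. Ncr1 (NKp46), a receptor of natural killer and some innate lymphoid cells, had signals of 38.1 and 51.2, both under the floor. Of the receptors with a probe set, Klra8 was thus lower and Ncr1 not measured, while Klrk1, measured only through the Hand2-null array, could come out only as higher.

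Cd3g, the CD3 gamma chain, was the member with the highest ratio. Its signals were 91.0 in the control and 169 in the Hand2-null array, both above the floor, 1.86-fold higher or a log2 ratio of 0.89. Of all measured genes 97.3% had a lower ratio. Cd3e, the CD3 epsilon chain, had signals of 24.6 and 18.2, both under the floor, and its probe set gives no ratio to set beside that of Cd3g. Cd3d, the CD3 delta chain, is the next protein-coding gene to Cd3g on GRCm38.p6, with 0 protein-coding genes between them. Its signals were 49.3, under the floor, and 76.6, a bound of at least 1.19-fold. Since it was measured only through the Hand2-null array, it could come out only as higher and adds nothing to the direction of Cd3g.

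**Figure D1:**
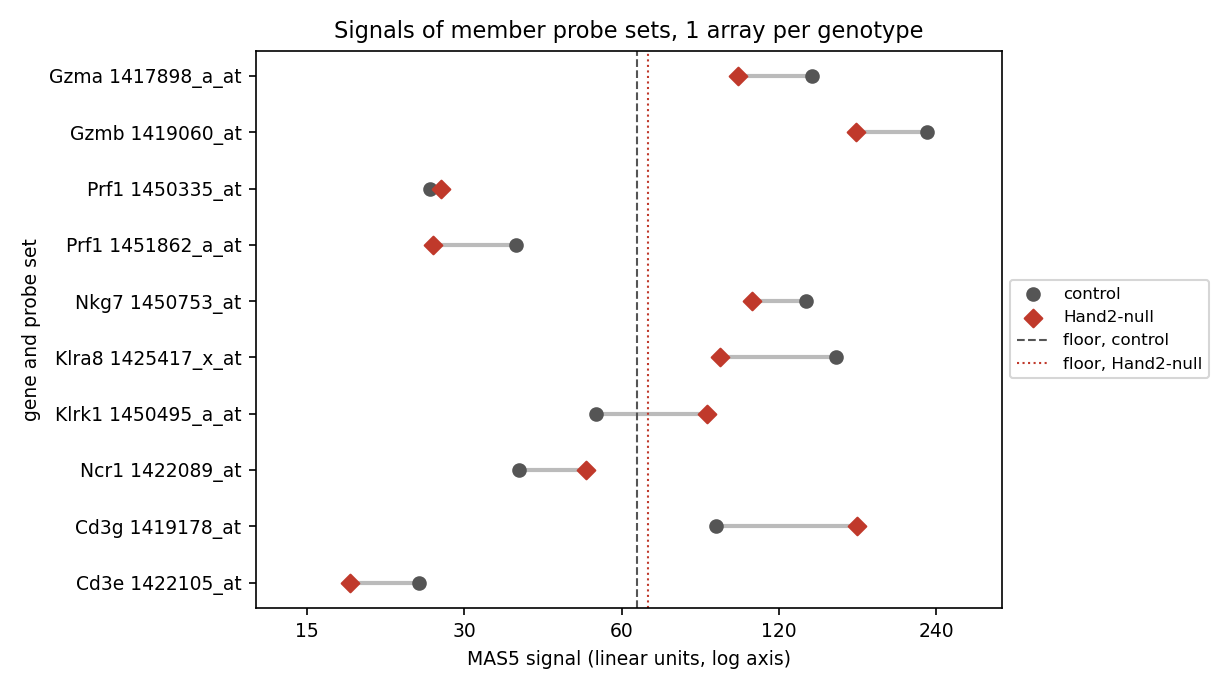
Signals of the 10 probe sets of the 9 member genes on a log axis in MAS5 units, with a grey circle for the control array, a red diamond for the Hand2-null array and vertical lines for the floors of 64.2 and 67.5. Gzma, Gzmb, Nkg7 and Klra8 lie right of both floors with the Hand2-null point to the left of the control point, Cd3g and Klrk1 have the opposite order, and Prf1, Ncr1 and Cd3e lie left of both floors.

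The plot of signals by probe set shows that the 4 lower members were above the floor in both arrays. In bulk RNA of this kind, fewer cells of a type and less RNA per cell cannot be told apart. Taken without any floor, 6 of the 9 genes were lower and 3 higher, with a median log2 ratio of -0.44, but 3 of these genes had no signal above the floor.

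**Figure D2:**
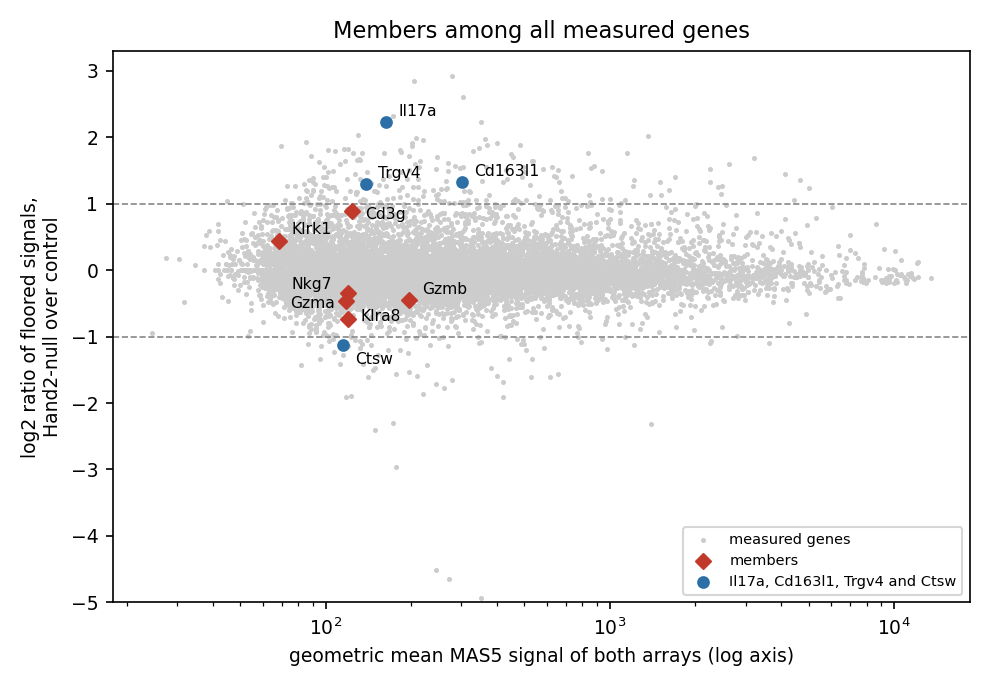
Log2 ratio of floored signals, Hand2-null over control, against the geometric mean signal of both arrays on a log axis, for all 10371 measured genes in grey, the 6 measured members as red diamonds and 4 further lymphocyte genes as blue circles, with dashed lines at 2-fold. All 6 members lie between the dashed lines, with Cd3g at 0.89 and Klra8 at -0.74 nearest to them.

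The plot of all measured genes places the members among the dimmer of these genes. In their range the SD between probe sets of a gene was 0.24, against 0.19 over genes of any brightness. The 6 members had mean signals between 68.5 and 197 over both arrays.

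Further genes of the cytotoxic granule went both ways. Of 20 further granule genes on the array 11 were measured, 6 were higher, 4 lower and 1, Gzmc, could not be given a direction, with a median log2 ratio of 0.12. Ctsw, the gene of cathepsin W of natural killer and cytotoxic T cells, was the only one of the 11 past 2-fold. Its signals were 169.8 and 77.7, 2.19-fold lower in the Hand2-null array, a log2 ratio of -1.13. The log2 ratio was -0.69 with a pseudo-signal equal to the floor added to both signals. With the floor at the 75th percentile the Hand2-null signal was under it, and the -0.04 is only a bound. Rab27a, which docks granules at the membrane, was at 0.50, the granule fusion gene Stx11 at 0.40, and Ctsc, the protease that activates granzymes, at -0.27. Gzmc, a granzyme whose gene lies next to Gzmb, had signals of 66.3 and 50.4, the first barely above the control floor. Several of these genes, such as Rab27a and Ctsc, are used by many cell types besides lymphocytes.

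Of 27 further receptor and adaptor genes of natural killer cells on the array 9 were measured, 2 higher and 7 lower, none past 2-fold, with a median of -0.07. Above both floors were 5 of them, 1 higher and 4 lower. Those 4 had log2 ratios from -0.07 to -0.01, close to the median of -0.03 over all measured genes. Klra7, an inhibitory receptor of the Klra cluster, had signals of 96.4 and 54.4, the second under the floor, at least 1.43-fold lower. Its probe set carries the same suffix as that of Klra8, so this signal too cannot be assigned to 1 gene of the cluster. Klre1, a lectin-like receptor of natural killer cells, had signals of 85.9 and 60.6, at least 1.27-fold lower. Itga1, an integrin of tissue-resident lymphocytes that stromal and smooth muscle cells make too, was at 0.72. The adaptors of the 2 measured activating receptors stood close to 0, with Hcst at 72.1 and 65.7, the second under the floor, and Tyrobp at 1204 and 1144, a log2 ratio of -0.07. Klrd1, a receptor chain of natural killer cells, had signals of 181 and 172, also -0.07. Tyrobp, which macrophages express too, and Klrd1 fall outside the naming rule and were chosen after their values were seen.

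Of 15 genes of ligands for these receptors 9 were measured, 3 higher and 6 lower, none past 2-fold, with a median of -0.12. Cadm1, a ligand of the receptor CRTAM, was at 0.82 and higher on all 3 measured probe sets, and the adhesion gene Icam1 was at 0.44. Cd1d1, which presents lipids to natural killer T cells, was at -0.53 on one probe set and -0.07 on the other, and Cd48, a ligand of the receptor 2B4 on leukocytes, at -0.38.

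In the list of interleukin 15 and other lymphocyte cytokines 10 of 21 genes on the array were measured, 8 higher and 2 lower, none past 2-fold, with a median of 0.12, and 6 of the 8 higher genes were above both floors. The 2 lower genes were Il15, the cytokine on which natural killer cells depend, and its presenting receptor chain Il15ra. Il15 had signals of 102 and 73.3, 1.39-fold lower or -0.47. Il15ra had signals of 169.5 and 118, 1.44-fold lower or -0.52, and its second probe set went from 70.2 to under the floor. That second probe set was measured only through the control array, so it could come out only as lower. Il18r1, a receptor chain for interleukin 18, had signals of 56.0 and 120, at least 1.86-fold higher, and the signal transducer Stat5a was at 0.25.

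Of 12 lymphocyte transcription factors on the array 9 were measured, 4 higher and 5 lower, with a median of -0.03, and 2 of the 4 higher genes were above both floors. Prdm1, the repressor Blimp-1 of differentiated lymphocytes, which other cells of the uterus make too, had signals of 708 and 344 and was the only one past 2-fold, 2.06-fold lower. Id2, needed for natural killer cells but made widely, was at 0.43, and the Ikaros family genes Ikzf2 and Ikzf3 were at -0.33 and at least 0.30.

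Few genes of T cells were measured. Of 24 further T cell genes on the array 5 were measured, none past 2-fold, and only Thy1 was above both floors. The other 4 were under the floor in the control array, so their folds are bounds, the floor set their direction and neither their number nor a median says whether T cell genes were higher. Besides Cd3d these were the costimulatory receptor Icos, the inhibitory receptor Ctla4 and the adaptor Lat. Icos had signals of 39.1 and 88.1, at least 1.37-fold higher, and its second probe set went the same way, from 36.5 to 84.6. Ctla4 had signals of 16.8 and 82.8, at least 1.29-fold higher, and Lat 54.3 and 74.0, at least 1.15-fold. Thy1, which fibroblasts express too, was lower, at 1331 and 1162.

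Among the lymphocyte lists, the highest median was that of genes of gamma delta T cells and innate lymphoid cells. Of 9 on the array 6 were measured, 5 higher and 1 lower, with a median of 1.05, and 3 were at least 2-fold higher, beside the 1.99% of all measured genes. Il17a, the cytokine interleukin 17A, had signals of 75.5 and 352, 4.66-fold higher, with a control signal near the floor. Its log2 ratio of 2.22 became 1.59 with a pseudo-signal and at least 1.11 under a floor at the 75th percentile. Cd163l1, a scavenger receptor known from gamma delta T cells, had signals of 191 and 476, 2.50-fold higher, and its second probe set went from 65.3 to 186, 2.84-fold higher. The brighter probe set carries the suffix for probes able to bind related transcripts, and the second does not.

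Trgv4, a variable segment of the T cell receptor gamma chain, had signals of 88.3 and 216, 2.45-fold higher, and 83.7 and 225 on its second probe set, 2.69-fold higher. The second carries that suffix, so it cannot be assigned to Trgv4 alone. The log2 ratio of its brighter probe set was 1.29, and 0.89 with a pseudo-signal or at least 0.41 under a floor at the 75th percentile. Rora, a nuclear receptor of innate lymphoid and interleukin 17 producing cells that many tissues make, was at 0.81. Its 5 measured probe sets were all higher, but those at 50.1 and 56.9 in the control array were under its floor. These could come out only as higher. The lower gene was Zbtb16, the factor PLZF, named outside the rule to complete the count. It is also made by stromal cells and had signals of 555 and 395, 1.41-fold lower or -0.49. Its second probe set, which carries the suffix, had 496 and 213, 2.32-fold lower, and the third 82.0 and a signal under the floor, at least 1.21-fold lower. The third could come out only as lower.

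Among chemokines and receptors of lymphocytes 13 of 19 genes on the array were measured, 8 higher and 5 lower, with a median of 0.25. Above both floors 8 were higher and 4 lower. Cxcl16, the ligand of CXCR6, was the only one at least 2-fold higher by its brighter probe set, with signals of 149 and 323, and its second probe set was 2.08-fold higher. Cxcr6, that receptor, had signals of 85.0 and 151, 1.78-fold higher, and its second probe set went from under the floor to 132. That second probe set could come out only as higher. Cxcl10 was at 0.91 and Cx3cr1, a receptor of natural killer cells and macrophages, at -0.63, with signals of 191 and 124.

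**Figure D3:**
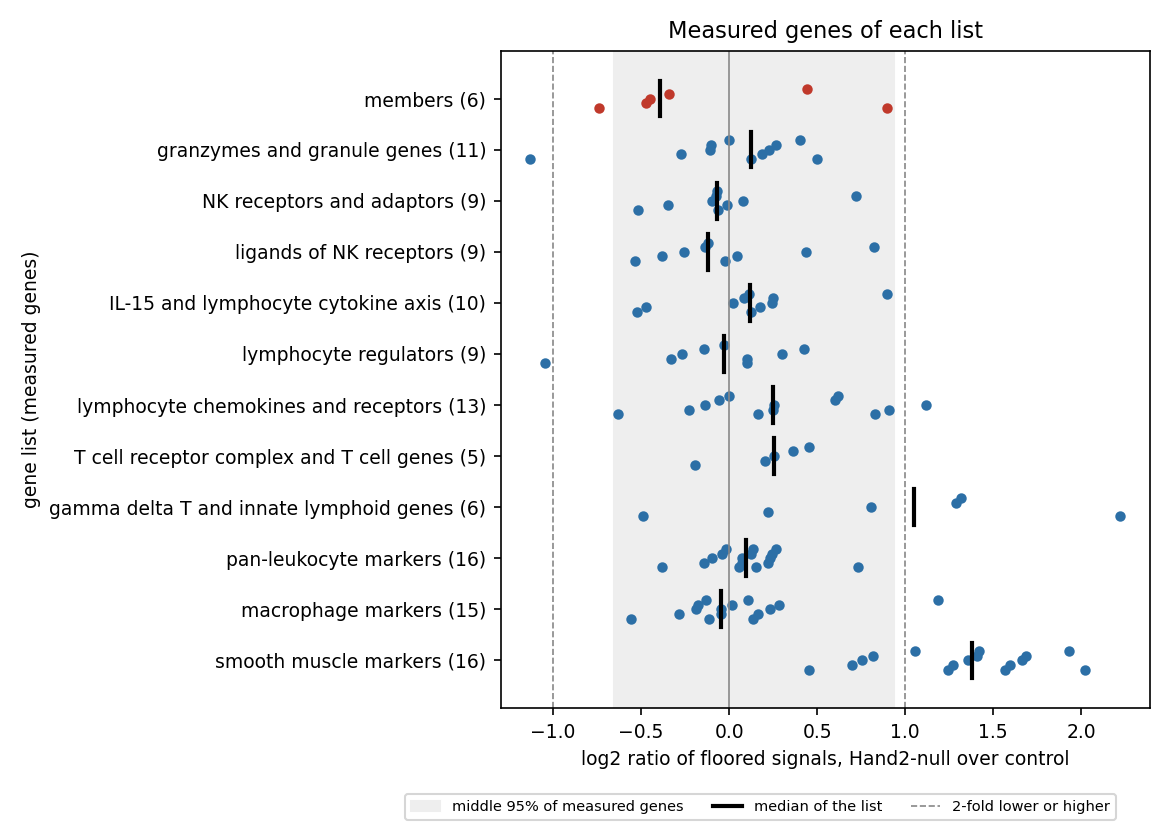
Log2 ratios of floored signals, Hand2-null over control, for each measured gene of 12 lists, with the number of measured genes beside each name, a black bar at the list's median, a grey band for the middle 95% of all measured genes and dashed lines at 2-fold. The 6 members in red fall into 4 lower and 2 higher genes, and the gamma delta T and innate lymphoid list has its median at 1.05 beside 0.12 for granule genes and -0.07 for receptors and adaptors.

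In the plot of measured genes by list, the lymphocyte genes past 2-fold outside the gamma delta T and innate lymphoid list were Ctsw and Prdm1, lower, and Cxcl16, higher. Of all measured genes 1.99% passed on the higher side and 0.742% on the lower. Of 16 measured pan-leukocyte markers 11 were higher, none past 2-fold, with a median of 0.10 and summed signals of 6309 in the control and 6826 in the Hand2-null array. Above both floors 10 were higher and 5 lower. Cytip, a regulator of leukocyte adhesion, was at 0.73, Cd48 at -0.38, and Hcls1 and Itgal at 0.27 and 0.24. The other lower markers were Arhgdib at -0.14, Lcp1 at -0.10, Itgb2 at -0.04 and Cd53 at -0.02, and Ptprc, the leukocyte antigen CD45, had signals of 754 and 821, all 5 named outside the rule. Of 15 measured macrophage markers 7 were higher, with a median of -0.05 and summed signals of 17525 and 16535. In the list of granulocyte and mast cell markers 7 were measured, 3 higher and 3 lower, or 2 higher and 3 lower above both floors. The measured mast cell proteases and neutrophil calgranulins went apart. The mast cell protease Cpa3 had signals of 121 and 381, 3.14-fold higher, the mast cell chymase Cma1 82.2 and 213, 2.59-fold higher, and Mcpt4, another mast cell protease, 37.4 and 120.5, at least 1.88-fold higher. The calgranulin genes of neutrophils were lower, S100a8 at 192 and 105, 1.82-fold, and S100a9 at 138 and 70.0, 1.97-fold. Kit, the receptor of mast cells that other cells make too, was at -0.56, Csf3r had signals of 64.9 and 21.5 and no direction, and S100a8, Kit and Csf3r were named outside the rule.

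Some markers of other cells differed more than the members did. For smooth muscle, all 16 markers had a higher signal in the Hand2-null pool, with a median of 1.38 and summed signals of 20989 and 47454. Above both floors were 12 of them, and 12, not all the same genes, were past 2-fold. Of 9 measured mesothelial markers 8 were higher, 3 of them above both floors, with a median of 0.82, and of 20 immediate-early and heat-shock genes 16, with 0.25. Medians were -0.03 for 13 stromal, 0.14 for 19 epithelial, -0.15 for 15 endothelial and -0.07 for 3 B cell markers. The part of these marker differences in the values of the members was not tested. Hand2 itself, which checks the labels, had signals of 1545 and 38.5 on its bright probe set, a loss of at least 22.9-fold.

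**Figure D4:**
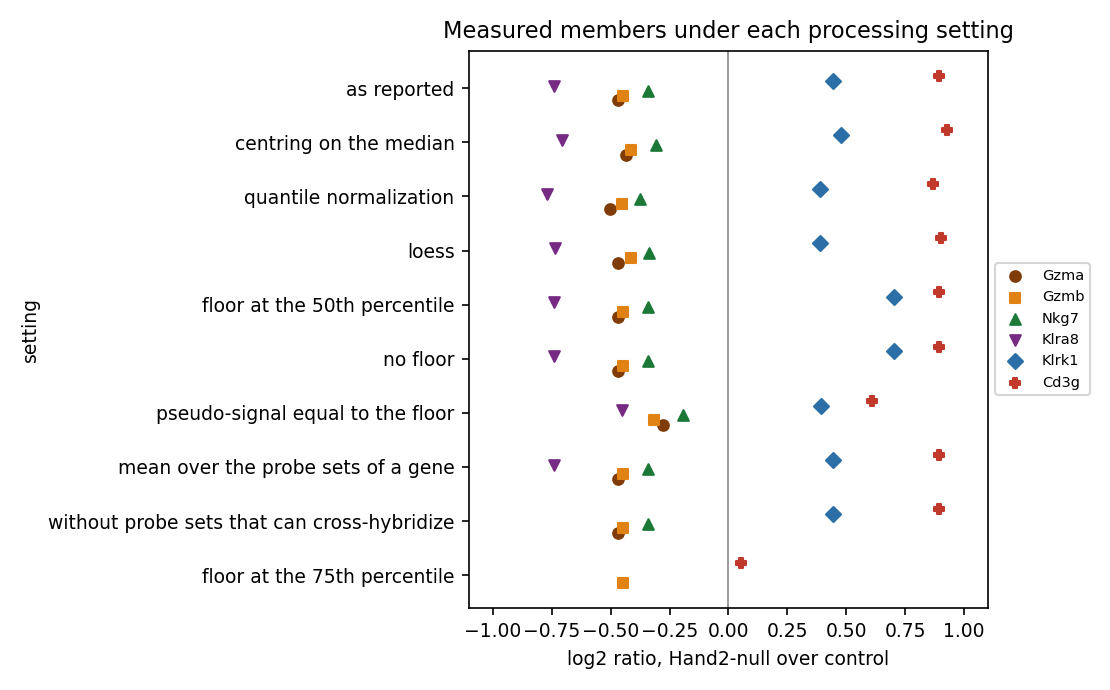
Log2 ratio of each of the 6 measured members, Hand2-null over control, under the reported setting and 9 alternatives, with 1 symbol per gene and no symbol where a gene was not measured under a setting. Gzma, Gzmb, Nkg7 and Klra8 lie left of 0 and Klrk1 and Cd3g right of 0 wherever they were measured, and Cd3g falls to 0.05 with the floor at the 75th percentile.

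As the plot of members by setting shows, each of the 6 kept its direction under every alternative that gave it a value. Where a floor lay above a gene's control signal, the value is a bound whose sign could not turn. This holds for Klrk1 under the reported floor and for Cd3g with the floor at the 75th percentile. Gzma lay between -0.50 and -0.28, Gzmb between -0.45 and -0.32, Nkg7 between -0.37 and -0.19 and Klra8 between -0.77 and -0.45. Klrk1 lay between 0.39 and 0.70 and Cd3g between 0.05, which is a bound, and 0.93. With the floor at the 75th percentile only Gzmb and Cd3g were still measured, and without probe sets that can bind related transcripts Klra8 was not.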

How the data were processed

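Uterine stromal cell RNA, 1 pool per genotype, was hybridized to Affymetrix mouse arrays after labelling of 100 ng of RNA, per the labels' protocols. The deposited values are linear intensity, the MAS5 signal. The submitters' processing notes name MAS5 and Affymetrix Expression Console (version 1) as the authors' tools. Trimmed by 2% at either end, the arrays had an equal mean signal of 150.001. The authors' genome build is not stated.

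Of 45101 probe sets 64 controls were left out, 34945 had 1 gene in the platform annotation, 932 several and 9160 none listed. Signals were floored at each array's 60th percentile and put on a log2 scale, and each gene was read from its probe set of highest mean log2 signal. No test was possible with 1 array per genotype, and the number of arrays limits the precision. The members and gene lists were chosen with earlier results of these data known. Named genes were the members, Hand2, and from each list up to 4 measured genes with the largest ratio and, for lymphocyte lists, any past 2-fold. Alternatives were centring, quantile and loess normalization with a span of 0.3, other floors, a pseudo-signal, other probe set choices and other folds. The procedure was tested on simulated data, with changes larger than any member's and in genes brighter than most members. That test does not cover differences as small as theirs. Python 3.11.15, numpy 2.4.6, pandas 2.3.3 and statsmodels 0.14.6 were used.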

Additional observations from a re-analysis of the deposited data

How the results depend on the processing

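The median log2 ratio of the measured members, -0.39 as reported, was -0.20 under a floor at the 50th percentile and also -0.20 under one at the 75th, where 2 members were measured. At 1.5-fold 1 member was higher and 1 lower, and 0 either way at 2-fold or 3-fold. Over all genes, 206 higher and 77 lower at 2-fold became 117 and 45 under a floor at the 75th percentile, 1646 and 1626 with no floor, 117 and 40 with a pseudo-signal, 644 and 345 at 1.5-fold and 49 and 20 at 3-fold. The median of further T cell genes was -0.20 with the 75th percentile as the floor, where Thy1 alone was left. The median of gamma delta T and innate lymphoid genes, 1.05 as reported, was 0.75 and 0.41 under floors at the 50th and 75th percentiles, 0.73 with no floor, 0.74 with a pseudo-signal and 0.82 with the mean over probe sets. Without a floor, 2-fold was passed upward by 7 of the 24 T cell genes and downward by 1. Among all 18193 genes 1646 and 1626 passed in those directions. Each of these T cell genes was under the reported floor in the control array, most in both arrays, so the counts give no direction. Of 614 other values under alternatives 67 moved by more than 0.19, the SD between probe sets of a gene, or for counts by over 1.5 times. None of these 67 came from centring, quantile or loess normalization, and no called value turned its sign, though a bound set by a floor could not show a turn. Fewer genes are measured under a higher floor, and a pseudo-signal shrinks ratios of dim probe sets by construction. No paired analysis was possible because each genotype has 1 array, and for the same reason no replicate could be left out.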

Other observations

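T cell receptor chain genes were also looked up by symbol, a choice made after the values of Trgv4 were seen. The array had 9 such genes on 16 probe sets annotated to 1 gene, and 5 probe sets of 3 genes were measured. All 5 were higher in the Hand2-null array, 2 of them, both of Trgv4, at least 2-fold. Of the 5, 4 carry the suffix for probes able to bind related transcripts, among them all of Trav9d-3 and Trbv1, so they cannot be assigned to 1 segment. Trav9d-3, an alpha chain segment, had signals of 96.5 and 130.3 on 1 probe set and 74.4 and 143 on the other, and Trbv1, a beta chain segment, had 115 and 139.9.

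Of probe sets annotated to several Klra genes, 1 was measured, with signals of 232 and 173, 1.34-fold lower in the Hand2-null array. It is assigned to no gene here. The probe set that lists Klrb1c beside another gene had signals of 19.5 and 14.0, both under the floor.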
